A study of Homo sapiens with 6 samples.

Results

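The transcripts of 6 kinesin-3 motors, KIF1A, KIF1B, KIF1C, KIF13A, KIF13B and KIF16B, were analysed in A549 cells with and without knock-down of KMT9α. The 6 genes were selected on a result of these data: KIF1A had been seen among the genes with the largest fall in this contrast, and its family was chosen for that. They are 6 of the 23180 gene symbols of the deposited RNA-Seq table, and all 6 passed the filter on low counts. Because the choice rests on the same contrast, the differences of the 6 genes between the groups are given as a description, without p-values, and calls of the fit over all genes are only counted beside their share among all genes.

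A549 is a human lung adenocarcinoma cell line. The samples were 3 A549 cultures at passage 11 transfected with siControl, a control siRNA, and 3 transfected with siKMT9α#1, a single siRNA against KMT9α, all harvested 3 days after transfection. KMT9α is the catalytic subunit of a histone H4 lysine methyltransferase and is encoded by N6AMT1. Both groups are unsorted transfected cultures of the same line, without a second siRNA against KMT9α in this data set, and in such bulk samples fewer cells that express a gene cannot be told apart from less RNA per cell.

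Kinesins are motor proteins that move along microtubules using ATP. Those of the kinesin-3 family carry membrane cargo towards the plus ends, which in most cells lie at the periphery, and are known for long runs once they are paired into dimers on a cargo. Their tails bind membrane lipids or adaptor proteins, and the tail decides whether a motor moves synaptic vesicle precursors, dense-core vesicles, mitochondria or endosomes. KIF1A is best known from neurons, while the other members are found in many cell types, epithelial cells included.

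Depth was similar in all libraries. Totals, with 1 transcript per gene, were 15551778 to 18568639.5 estimated counts with siControl and 13740097 to 19832395.5 with siKMT9α#1, and the biological coefficient of variation between replicates was 4.47%. The knock-down was visible in its target. N6AMT1 had 10.2, 10.8 and 11.5 CPM (counts scaled to a common library size) in the siControl samples and 2.87, 3.22 and 3.35 CPM in the siKMT9α#1 samples. Its log2 fold change was -1.77 with a standard error of 0.12 (adjusted p = 1.43e-10). Here and for every other gene outside the selected ones, adjusted p-values are from the quasi-likelihood test of edgeR. They were corrected after Benjamini-Hochberg across the 13877 genes tested. Between samples of a group the counts differed by a chi-square of 1.36 to 5.25 per gene, and between groups by 106.5 to 140.3. The contrast was broad, so a large share of all genes passes any call, and all p-values measure the spread between these 3 and 3 samples.

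The sequences that matter here are the places where transcripts of 1 gene part, because KIF1B and KIF13A were each counted as several transcripts that differed in opposite directions. KIF1B has a short form (transcript NM_183416, annotated as KIF1B-205) with 21 exons and a long form (NM_015074, KIF1B-201) with 47 exons. They share exons up to exon 20, which ends at position 10357304 of chromosome 1 (hg19, plus strand), and then use different exons 21, so that they encode the same motor domain with different tails. KIF1Bα, the protein of the short form, is known as a motor of mitochondria, and KIF1Bβ, that of the long form, as a motor of synaptic vesicle precursors and lysosomes. KIF13A, on the minus strand of chromosome 6, has a short form (NM_001243423, KIF13A-207) of 3 exons that leaves the long forms after exon 2. The 60 bases across each junction are printed 5′ to 3′, with the last 30 bases of the shared exon in lower case and the bases found only in that form in capitals. For the short forms the capitals lie at chr1:10363221-10363250 and chr6:17951631-17951660, for the long form of KIF1B at chr1:10380101-10380130, and for the long form of KIF13A across exons 3 and 4 of KIF13A-203.
KIF1B short form: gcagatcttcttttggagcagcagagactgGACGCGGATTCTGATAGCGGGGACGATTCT
KIF1B long form: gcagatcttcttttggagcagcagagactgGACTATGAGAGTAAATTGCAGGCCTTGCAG
KIF13A short form: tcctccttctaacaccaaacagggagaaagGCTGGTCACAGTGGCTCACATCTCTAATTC
KIF13A long form: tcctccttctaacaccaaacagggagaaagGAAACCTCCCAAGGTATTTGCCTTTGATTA

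A short match to the siRNA was also found in the family, in the KIF1B form that was lower. The target site of siKMT9α#1 lies in the coding sequence of N6AMT1, on the minus strand at chr21:30254500-30254524, and the 7 bases that pair with guide bases 2 to 8 are in capitals. The same 7 bases, ACATTCA, stand once in the 3950 bases of 3′ UTR of the KIF1B short form. They lie within the 29 bases printed here, chr1:10365071-10365099 on the plus strand, and are in capitals.
N6AMT1 target site: acgctgtaacaaagttcACATTCAa
KIF1B short form site: agtttatgcagACATTCAaaaggagaatt
No copy of these letters was found in the 3′ UTR of the annotated transcripts matched to KIF1A, KIF1C, KIF13A, KIF13B and KIF16B or to the KIF1B long form. Of the 12220 genes tested with an annotated 3′ UTR, read in 1 transcript per gene, 1722 (14.1%) held ACATTCA on the transcript strand. By that reading KIF1B, through its transcript KIF1B-214, held 0 copies. The family search covered more transcripts per gene, so the 14.1% is not a like-for-like background for it. The match in the short form is a description of letters, and the part of the site in the level of that form was not tested.

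KIF1A, a motor of synaptic vesicle precursors and dense-core vesicles, was the only member whose leading transcript was lower with siKMT9α#1, and had the largest difference of the 6. Its leading transcript, NM_001244008, spans 241653181 to 241759725 of chromosome 2 (hg19) in 49 exons on the minus strand. The 3 siControl samples had 27.9, 25.2 and 26.8 CPM, and the 3 siKMT9α#1 samples had 0.983, 0.804 and 1.02 CPM. Every siKMT9α#1 sample was thus far below every siControl sample, from 408 to 525.5 estimated counts per sample down to 11 to 19.5. The means were 26.6 ± 1.36 CPM and 0.935 ± 0.116 CPM (SD, n = 3 each), a 28.5-fold lower level and a log2 fold change of -4.79 (standard error 0.13). The second deposited transcript, NM_004321, shares most of its exons and gave -4.82 (standard error 0.14), so both carried the same reads and are not separate evidence.

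KIF13A, which carries mannose-6-phosphate receptors and recycling endosomes through the AP-1 adaptor, had the largest difference in the other direction. Its leading transcript NM_001105568 spans 17759414 to 17987854 of chromosome 6 in 38 exons. The siControl samples had 20.04, 18.4 and 19.2 CPM and the siKMT9α#1 samples 55.7, 55.0 and 59.5 CPM, with no overlap. The level was 2.95-fold higher, with a log2 fold change of 1.56 (standard error 0.06). The 3 further long transcripts, which share nearly all coding exons, had log2 fold changes of 1.57 to 1.58.

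The short KIF13A form went the other way at a low level. It had 1.62, 2.16 and 2.03 CPM with siControl and 1.13, 0.66 and 1.36 CPM with siKMT9α#1, with a log2 fold change of -0.82 (standard error 0.25). The groups did not overlap, but the form rests on 9 to 39 estimated counts per sample. Of its bases, 1024 are its own and 306 are shared with NM_001105568, so its counts include reads that the long forms could have given.

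KIF1B, the closest relative of KIF1A in the family, was higher when read by its long form. NM_015074 spans 10270764 to 10441661 of chromosome 1. The siControl samples had 29.3, 27.3 and 27.2 CPM and the siKMT9α#1 samples 51.9, 55.2 and 58.6 CPM, a 1.98-fold higher level with a log2 fold change of 0.99 (standard error 0.06). The short form NM_183416 ends at 10368655 and had 38.9, 32.3 and 33.8 CPM with siControl against 22.1, 23.3 and 22.6 CPM with siKMT9α#1, and its log2 fold change was -0.63 (standard error 0.07). The forms differed in opposite directions, each without overlap between the groups, and the usual choice of 1 transcript per gene shows only the long form.

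**Figure D1:**
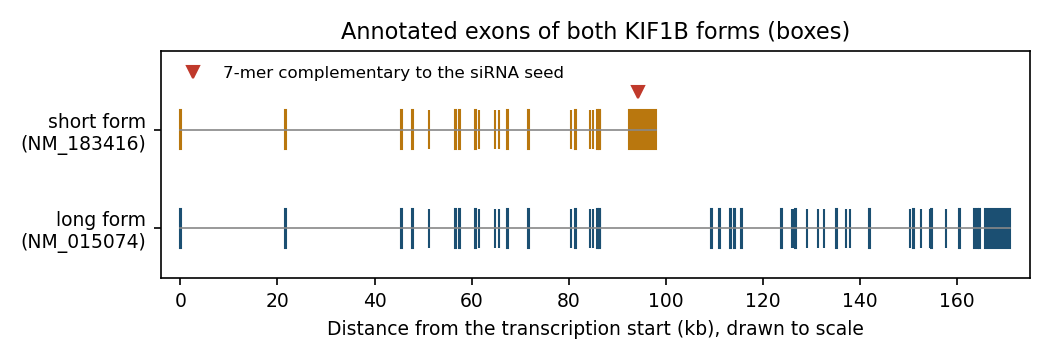
Exons of the KIF1B short and long forms along the gene, drawn to scale as distance from the transcription start in kilobases, with the place of the ACATTCA letters marked. The forms share 20 exons, after which the short form ends in 1 long exon of its own and the long form goes on to 47 exons.

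Both forms count the reads of their 2229 shared exon bases, so both fold changes understate the shift. The difference of the CPM values, long minus short, is free of the shared reads. It was -9.58, -4.94 and -6.63 CPM in the siControl samples and 29.7, 31.9 and 36.1 CPM in the siKMT9α#1 samples, negative in every control sample and positive in every knock-down sample. Dividing the reads between the forms under the assumption of even coverage along each form gave a short form of 4.04 ± 0.448 CPM per kilobase (SD, n = 3) in control cells and 1.53 ± 0.103 (SD, n = 3) after the knock-down, 2.64-fold lower. The same estimate of the long form was 1.79 ± 0.0363 CPM per kilobase (SD, n = 3) and 4.90 ± 0.334 (SD, n = 3), 2.74-fold higher. The long form made up an estimated 28.5%, 32.9% and 30.9% of KIF1B transcripts in the siControl samples and 74.6%, 75.0% and 78.7% in the siKMT9α#1 samples. Both estimated forms together came to 5.49 to 6.36 CPM per kilobase in control cells and 6.13 to 6.66 after the knock-down, ranges that overlapped. Even coverage was not tested for KIF1B, and KIF13A departed from it in its first exons. With siKMT9α#1, NM_001105568 of KIF13A had 8.10 CPM per kilobase. The KIF13A short form, which shares 306 bases with it, had only 1.05 CPM in all. The estimated levels, shares and totals of the KIF1B forms rest on that assumption. The small RNA pseudogene RN7SL731P is annotated inside the last exon of the short form, and whether its reads were counted there was not tested.

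**Figure D2:**
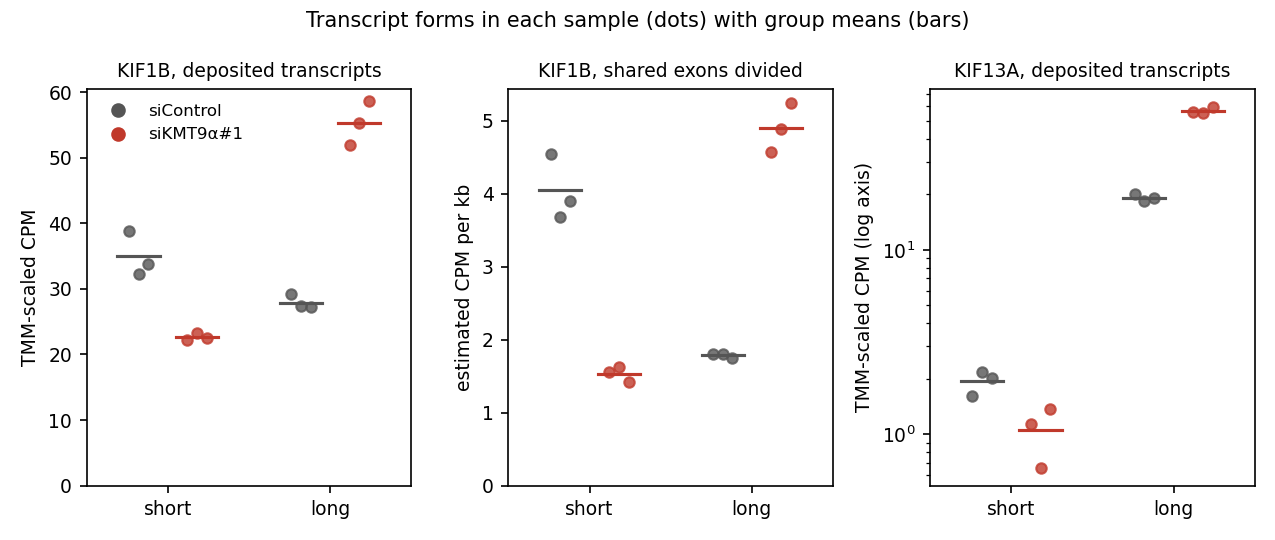
Levels of the forms of KIF1B and KIF13A in each of the 6 samples, points for samples and lines for group means. The left panel gives the CPM of the deposited KIF1B transcripts, the middle panel the estimated CPM per kilobase with shared exons divided, and the right panel the CPM of KIF13A on a log axis. In both genes the short form lies lower and the long form higher with siKMT9α#1, with no overlap between the groups, though the KIF13A short form stays between 0.66 and 2.16 CPM.

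KIF1C, which moves dense-core vesicles and integrin-bearing vesicles, was the most abundant member in counts. NM_006612 spans 4901243 to 4931694 of chromosome 17 in 23 exons on the plus strand, and the antisense lncRNA KIF1C-AS1 is annotated within it. The siControl samples had 118.0, 128.6 and 132.9 CPM and the siKMT9α#1 samples 196.7, 186.9 and 179.6 CPM. The groups did not overlap, and the level was 1.48-fold higher with a log2 fold change of 0.57 (standard error 0.05). Whether counting used the strand is not given in the sources used here, so reads of the antisense RNA cannot be told apart from those of KIF1C.

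KIF16B, whose tail binds the phosphoinositide of early endosomes, was the member that did not differ beyond its spread. NM_024704 spans 16252749 to 16554079 of chromosome 20 in 26 exons on the minus strand. The siControl samples had 41.1, 41.2 and 41.6 CPM and the siKMT9α#1 samples 41.1, 43.3 and 40.4 CPM. The groups overlapped, and the log2 fold change was 0.01 (standard error 0.06). The other deposited transcripts of KIF16B had 0.00 and 0.03.

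KIF13B, known for carrying a phosphoinositide-binding protein and the scaffold DLG1, was modestly higher. NM_015254 spans 28924795 to 29120610 of chromosome 8 in 40 exons on the minus strand, and several annotated noncoding RNAs and a pseudogene lie within its span. The siControl samples had 24.8, 23.2 and 24.4 CPM and the siKMT9α#1 samples 30.3, 34.7 and 32.5 CPM. The groups did not overlap, and the log2 fold change was 0.43 (standard error 0.07).

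**Figure D3:**
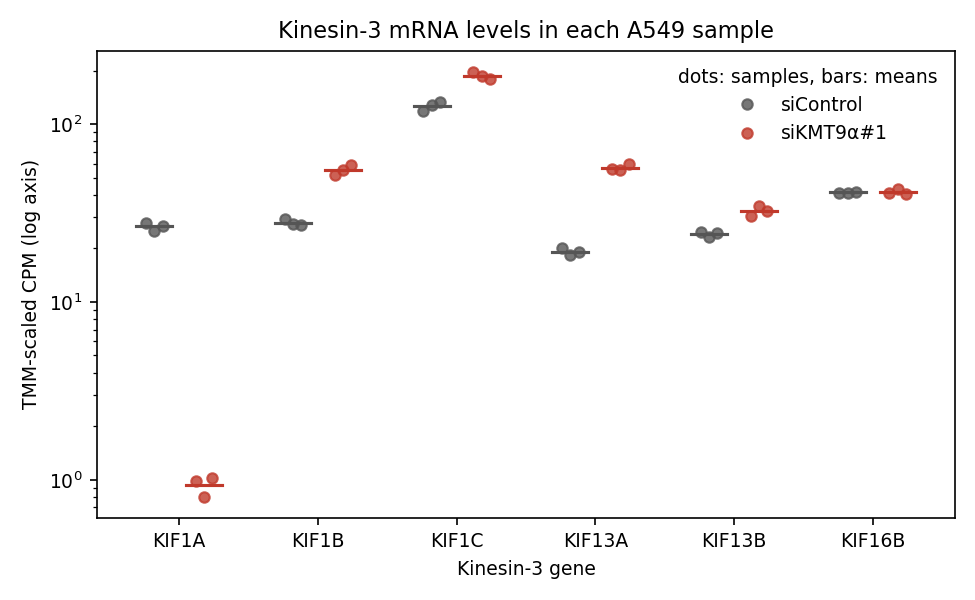
CPM of the 6 kinesin-3 motors in each sample on a log axis, points for samples and bars for group means. KIF1A drops from 25.2 to 27.9 CPM down to 0.804 to 1.02 CPM, KIF16B stays at 40.4 to 43.3 CPM, and the other 4 lie higher with siKMT9α#1 in all 3 samples, KIF1B being drawn by its long form.

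The study called a gene changed at a p-value below 1e-08 with an absolute log2 fold change above 0.26. By that threshold KIF1B (through its long form), KIF1C and KIF13A were higher, 3 of the 6 members, where 13.5% of all genes tested were called higher. KIF1A was the 1 member called lower, where 10.7% of all genes were. KIF13B and KIF16B were not called. At an adjusted p under 0.05, 5 of the 6 were called beside 75.6% of all genes, and in 5 of the 6 the groups did not overlap beside 77.0% of all genes. The family was chosen on this contrast, so nothing is read from these counts. The median log2 fold change of the 6 was 0.50, beside -0.01 over all genes tested.

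Per kilobase of the leading transcript, which for KIF1B is the long form alone, the motors formed a steep order in the control cells. KIF1C had a mean of 16.1 ± 0.975 CPM per kilobase and KIF16B of 7.93 ± 0.0457 (SD over 3 siControl samples each). KIF1A, KIF13B, KIF13A and KIF1B followed with 2.92, 2.78, 2.74 and 2.66 CPM per kilobase, and the ranges of neighbours in this order overlapped. With siKMT9α#1 the order became KIF1C at 23.9, KIF13A at 8.10, KIF16B at 7.98, KIF1B at 5.27, KIF13B at 3.74 and KIF1A at 0.102 CPM per kilobase. Only KIF13A and KIF16B overlapped in that order, KIF13A having 7.85 to 8.49 and KIF16B 7.76 to 8.31 CPM per kilobase. KIF1A had the lowest level of the 6 after the knock-down. The place of KIF1B depends on the transcript: with both estimated forms it had 5.83 CPM per kilobase in control cells, between KIF16B and KIF1A, and 6.43 after the knock-down. That of KIF13A depends on it too. Its leading transcript, of 7009 bases, had means of 19.2 CPM with siControl and 56.7 CPM with siKMT9α#1. The long transcript NM_022113, of 5918 bases, had 12.8 and 38.1 CPM, a lower level per kilobase in both groups.

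The sum of the 6 leading transcripts, without the KIF1B short form, was 34.4 to 35.9 CPM per kilobase with siControl and 48.5 to 49.4 with siKMT9α#1, 1.40-fold higher. KIF1A made up 8.32% of that sum in the control cells and 0.209% with siKMT9α#1. The share of KIF13A went from 7.81% to 16.5% and that of KIF16B from 22.6% to 16.3%. The share of KIF1B changed direction with the transcripts counted, from 7.59% to 10.8% by the long transcript and from 15.2% to 12.8% with both estimated forms. KIF1C held the largest share in both groups, at 43.5% to 47.0% with siControl and 47.0% to 50.6% with siKMT9α#1. With both KIF1B forms the sum was 37.8 to 39.0 CPM per kilobase in control cells and 49.6 to 50.5 after the knock-down, 1.31-fold higher.

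**Figure D4:**
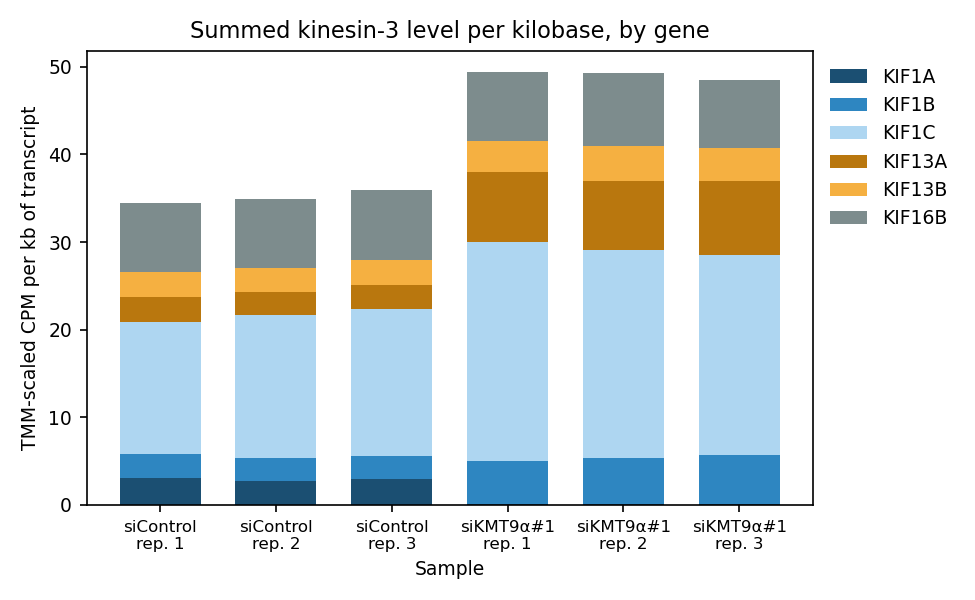
Stacked levels of the 6 motors per kilobase of their leading transcript in each sample, in CPM per kilobase from 0, with KIF1B by its long form only. The stack grows from 34.4 to 35.9 up to 48.5 to 49.4, with the KIF13A segment growing and the KIF1A segment nearly gone.

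The other motors of the cell were read from lists chosen for function. The counts past the threshold in these and the following lists stand beside 13.5% of all genes tested called higher and 10.7% called lower. The 2 further kinesin-3 motors, KIF14 and STARD9, act in cell division rather than in vesicle transport. KIF14 had 1.64 CPM with siControl and 5.35 CPM with siKMT9α#1 (log2 fold change 1.66, adjusted p = 9.66e-08), and STARD9 3.53 and 5.80 CPM (0.74, adjusted p = 0.00013). Neither passed the study's threshold by the quasi-likelihood test used here, though both had an adjusted p under 0.05 by the same test.

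Kinesin-1 and kinesin-2, the other plus-end transport families, fell where they were called, with 1 exception. Of 7 kinesin-1 genes 3 fell and 0 rose past the threshold, with a list median of -0.92. The fallen genes were the light chains KLC4 (11.1 to 3.87 CPM, log2 fold change -1.53, adjusted p = 1.51e-09) and KLC2 (61.5 to 32.5 CPM, -0.92, adjusted p = 4.1e-11) and the heavy chain KIF5B (309 to 224 CPM, -0.46, adjusted p = 2.91e-08). Of 5 kinesin-2 genes 3 fell and 1 rose, with a median of -0.82. KIFAP3, the accessory subunit of the heterotrimer, fell from 52.9 to 27.2 CPM (-0.96, adjusted p = 3.48e-11), KIF3C from 70.2 to 39.6 CPM (-0.83, adjusted p = 1e-10) and KIF3A from 48.2 to 27.4 CPM (-0.82, adjusted p = 4.12e-09). KIF3B, the partner of KIF3A in that heterotrimer, rose from 56.8 to 91.9 CPM (0.69, adjusted p = 3.79e-10) and is named although it falls outside the rule for named genes.

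Mitotic kinesins, which move chromosomes and slide spindle microtubules, mostly rose. Of 13 genes, KIF14 among them, 10 rose and 0 fell past the threshold, and the median log2 fold change was 1.66. They include KIF4A, whose reads cannot be told apart from those of its near-identical intronless copy KIF4B with certainty. KIF18B rose from 0.841 to 8.43 CPM (log2 fold change 3.33, adjusted p = 2.37e-12), KIF2C from 2.75 to 14.7 CPM (2.4, adjusted p = 8.26e-13) and KIFC1 from 2.33 to 9.89 CPM (2.09, adjusted p = 2.57e-11). Of 11 other kinesins tested, 1 rose and 2 fell, with a median of -0.11. KIF2A, a microtubule depolymerase, rose from 28.7 to 73.8 CPM (1.36, adjusted p = 1.61e-13), while KIF21B fell from 13.9 to 5.57 CPM (-1.33, adjusted p = 2.55e-09) and KIF21A from 120 to 71.4 CPM (-0.76, adjusted p = 3.27e-10).

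**Figure D5:**
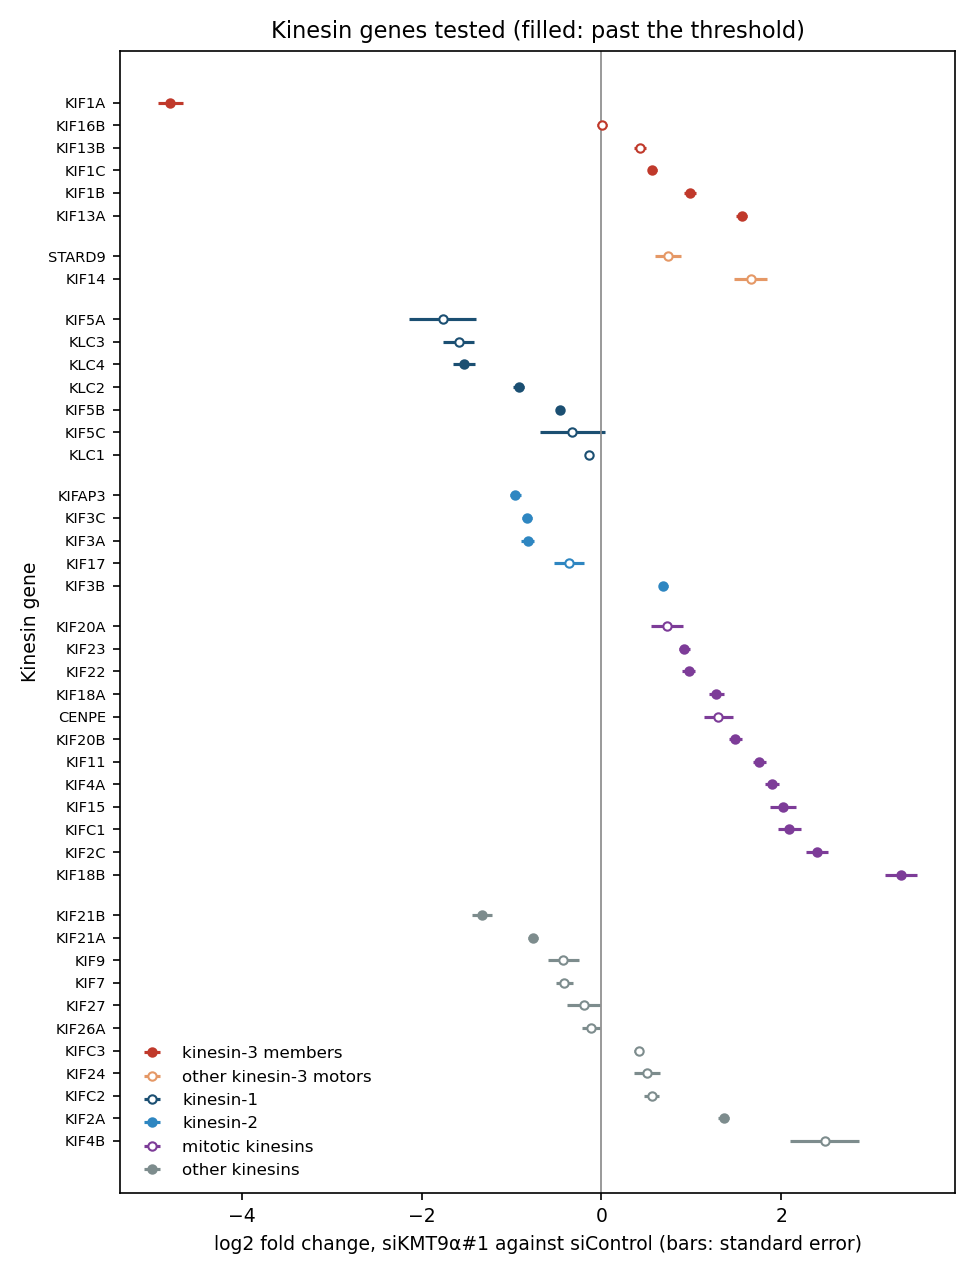
Log2 fold change of the kinesin genes tested, siKMT9α#1 against siControl, grouped by family, with bars for the standard error and filled points for genes past the study's threshold. The 6 kinesin-3 members span -4.79 to 1.56 and the other kinesin-3 motors, STARD9 and KIF14, lie at 0.74 and 1.66, while kinesin-1 and kinesin-2 lie mostly below 0, and mitotic kinesins lie above 0.

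The minus-end motor dynein moves cargo the opposite way, with dynactin as its activator. Of 21 dynein and dynactin genes tested, 6 fell and 0 rose past the threshold, with a median of -0.27. The largest falls were in dynactin subunits, DCTN3 (54.8 to 27.4 CPM, log2 fold change -0.997, adjusted p = 6.76e-11), ACTR10 (115 to 60.5 CPM, -0.92, adjusted p = 5.73e-12) and DCTN5 (207 to 114 CPM, -0.86, adjusted p = 2.37e-12).

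Among 29 adaptors and regulators of kinesin-3 tested, 5 rose and 3 fell, with a median of -0.06. These counts are near the 13.5% of all genes called higher and the 10.7% called lower. PPFIA3 encodes a liprin-α scaffold that binds KIF1A, and it fell from 12.8 to 2.84 CPM (log2 fold change -2.17, adjusted p = 5.26e-12). The calmodulin genes, whose protein binds KIF1A, went in opposite directions. CALM2 rose from 329 to 1432 CPM (2.12, adjusted p = 1.2e-16) and CALM3 fell from 318 to 136 CPM (-1.23, adjusted p = 1.21e-13). MADD, a linker between KIF1A or KIF1B and RAB3 vesicles, had 52.7 and 40.7 CPM (-0.37, adjusted p = 1.01e-05) and did not pass the threshold.

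Genes of dense-core and synaptic vesicles, the known cargo of KIF1A, were read by their mRNA levels, and no cargo was measured. Of 12 tested from a list of 20, 2 rose and 4 fell past the threshold, with a median of -0.22. That median turned to 0.14 when at least 10 counts were required in every sample and was -0.05 without siControl replicate 1. SYT1, the calcium sensor of synaptic vesicles, rose from 4.45 to 76.2 CPM (log2 fold change 4.10, adjusted p = 8.48e-18). PTPRN, a membrane protein of dense-core granules, fell from 2.71 to 0.434 CPM (-2.70, adjusted p = 2.47e-08), and VGF, a secreted granule peptide precursor, fell from 32.2 to 8.99 CPM (-1.82, adjusted p = 5.52e-13). Of 16 microtubule-associated proteins tested 2 fell, near the 10.7% of all genes called lower, and 0 rose, with a median of -0.49. Both encode vasohibins, tubulin carboxypeptidases, VASH2 (4.05 to 0.632 CPM, -2.72, adjusted p = 1.04e-08) and VASH1 (20.98 to 11.1 CPM, -0.93, adjusted p = 1.36e-08).

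The label of the cells was set against their markers, which also moved. Epithelial keratins were abundant, with KRT8 at 1281 CPM, and 4 of the 6 epithelial markers fell and 0 rose past the threshold, with a median of -0.72. EPCAM fell from 3.86 to 0.593 CPM (log2 fold change -2.76, adjusted p = 2.84e-09), KRT8 to 528 CPM (-1.28, adjusted p = 5.19e-14) and KRT18 from 2041 to 1210 CPM (-0.75, adjusted p = 1.06e-10). The fourth was KRT19, at 57.6 and 35.9 CPM (-0.68, adjusted p = 2.62e-08). The other two did not pass: CDH1, the adhesion protein E-cadherin, had 3.39 and 8.62 CPM (1.34, adjusted p = 3.11e-07), and KRT7 had 1260 and 1269 CPM (0.01, adjusted p = 0.876). Keratins have many processed pseudogenes, so the share of reads given to KRT8 and KRT18 is uncertain. The summed level of the 6 markers was 4402 to 4886 CPM with siControl and 2943 to 3130 CPM with siKMT9α#1. Lung alveolar and airway markers were near 0, with a sum of at most 0.618 CPM in any sample, SFTPA1 and AQP5 at 0 in all 6, and 0 of 6 tested.

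KIF1A is known as a neuronal gene, so neuronal and neuroendocrine factors were read beside it. Of 11 factors only REST, the repressor of neuronal genes, was tested, with 50.1 and 61.0 CPM (log2 fold change 0.29, adjusted p = 0.000176), not past the threshold. INSM1, NEUROD1, NKX2-2, SOX11 and ELAVL4 were at 0 in all 6 samples, and the sum of the list was 49.4 to 51.8 CPM with siControl and 57.4 to 65.1 CPM with siKMT9α#1, nearly all of it REST. Of 5 fibroblast markers, summed at 7.35 to 9.32 and 3.69 to 4.50 CPM, 3 were tested and 1 fell, LUM (3.14 to 0.271 CPM, -3.45, adjusted p = 5.75e-09), with a median of -0.61 and COL1A2 at 0. Of 6 blood and endothelial markers, summed at 77.9 to 84.6 and 27.2 to 28.6 CPM, only CD68, a lysosomal protein also made by other cells, was tested, and it fell (80.6 to 27.9 CPM, -1.53, adjusted p = 1.66e-14), while CD3E and HBB were at 0. The part of any of these shifts in the levels of the kinesin-3 motors was not tested.

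The genes whose levels over the 6 samples were most like those of KIF1A were less like it than the nearest genes of the other members were like theirs. The measure was the root mean square difference of log2(CPM + 0.5). KIF1A was chosen for its large fall in this contrast and had only 0.804 to 1.02 CPM with siKMT9α#1. Its distance from other genes is bound to that choice and is not a separate trait. INHBE, an inhibin subunit, was nearest at 0.497, with 17.9 CPM against 1.30 CPM, followed by DIRAS1, a RAS-like GTPase, at 0.792 and NPAS1, a transcription factor, at 0.842. The nearest genes of KIF13A were FRYL at 0.074, ANLN at 0.0867 and MEX3C at 0.0926, and those of KIF1B were PKD2 at 0.055, GINS1 at 0.081 and ANKRD50 at 0.0817.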

How the data were processed

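RNA was sequenced from 6 A549 samples, 3 per group, grouped by the siRNA named in the labels. That replicates are biological comes from the labels, and the siRNA and harvest time come from the study's methods. Per the study's methods and the submitters' notes, STAR was used for alignment (hg19) and HOMER for counting over RefSeq transcripts. The authors deposited estimated counts per transcript without normalization. Of these values 36.4% were not whole, in steps of 0.5. HOMER's counting options, strand and treatment of multi-mapped reads are not given in the sources used here. Deposited columns of the authors' own edgeR comparison (fold change, p-value, adjusted p-value) were not used. Of 38767 rows, 1182 without a symbol and counts were left out, and 37585 transcripts of 23180 symbols remained.

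Each symbol was represented by the transcript with the largest summed count. Rounded counts entered edgeR 4.0.16 under R 4.3.3 (TMM factors, filterByExpr, two-sided quasi-likelihood test), which left 13877 genes, and p-values were adjusted by Benjamini-Hochberg. The fit was also run on counts simulated from the fitted model, which cannot show whether that model holds for these data. CPM values are scaled by the TMM factors. An exact permutation test of 3 against 3 cannot go below 0.1 and was not used. Exons, UTRs and sequences came from a GRCh37 annotation and its transcript sequences. Every deposited transcript of the members was matched to the nearest annotated one, with the end exons set to the deposited span. Exon bases then differed from the deposited length by 5 to 97, a difference that tracked the number of exons.

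The 15 gene lists, that of the members among them, were chosen with earlier results of these data known. Named genes were the members, N6AMT1, the 3 largest changes per list past the study's threshold with a mean of at least 1 CPM, the 3 genes most like each member, and the markers. KIF14, STARD9, KIF3B and MADD are named beside the rule, chosen after their values were seen. The split of KIF1B into forms, and the sums and shares built on it, were added after seeing the data. Alternatives were, for the test, the likelihood-ratio test and DESeq2 1.42.0, for the scaling, RLE factors or the library size alone, and for the filter, none or a minimum of 10 counts per sample. Further alternatives were a fit of all transcripts or of the longest per symbol, a block for replicate number, and the removal of each library in turn.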

Additional observations from a re-analysis of the deposited data

How the results depend on the processing

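Each member kept the sign of its log2 fold change under every alternative run except KIF16B, which had no call. Under library size alone, which moved the median of all genes from -0.01 to -0.12, KIF1B had 0.88, KIF1C 0.46, KIF13A 1.46, KIF13B 0.32, KIF16B -0.10 and the KIF1B long form estimate 1.35. That scaling called 1516 genes higher and 1862 lower (44.9% higher), against 1878 and 1479 (55.9%). Genes past the study's threshold numbered 3357, and 5962 by the likelihood-ratio test, 6070 without a filter and 4773 with DESeq2. With each sample left out they were 2326 to 4085, and without siKMT9α#1 replicate 2 the lower genes were 926. Genes with an adjusted p under 0.05 were 10492, 10004 to 10313 with each sample left out, and 9697 to 11148 over all alternatives. Without each sample in turn, KIF1A had -4.89 to -4.70, KIF13A 1.52 to 1.61, KIF1B 0.94 to 1.04, KIF1C 0.54 to 0.62, KIF13B 0.38 to 0.48, KIF16B -0.02 to 0.03, and the KIF1B forms -1.46 to -1.31 (short) and 1.40 to 1.502 (long). The median of the vesicle cargo list went from -0.22 to 0.14 with at least 10 counts in every sample, a filter that tests fewer genes, and to -0.05 without siControl replicate 1. Whether the replicate numbers pair the samples is not stated. The deviations of same-numbered samples showed no shared effect (correlations -0.0788, 0.022 and -0.0802), which cannot settle how the cultures were handled. With the replicate block 2342 genes passed, 974 of them lower, and the members had -4.79 (KIF1A), 1.56 (KIF13A), 0.99 (KIF1B), 0.57 (KIF1C), 0.43 (KIF13B) and 0.01 (KIF16B). At 11 to 19.5 counts per sample, depth limits the level of KIF1A after the knock-down.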

Other observations

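The nearest genes of the remaining members differed from them by less than 0.1 in the root mean square of log2(CPM + 0.5) over the 6 samples. For KIF1C they were EWSR1 at 0.0403, MAP2K3 at 0.0557 and RSRC2 at 0.0576, for KIF13B APC at 0.0653, TULP4 at 0.0667 and MYNN at 0.0735, and for KIF16B AMBRA1 at 0.038, PCGF2 at 0.0438 and TMUB1 at 0.0445. The replicate spread (SD of log2 CPM within groups) was largest for KIF1A, at 0.141, and smallest for KIF16B, at 0.0373.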
